A study of Mus musculus with 9 samples.

Results

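Atrx knockout clone B10 was compared with wild-type (WT) cells for where chromatin was open, by ATAC-seq, in which a transposase cuts accessible DNA and sites with many cuts are called as peaks. All cells were C3H/10T1/2, an established mouse line that stands for mesenchymal progenitor cells (MPCs). B10 is a line grown from a single cell after CRISPR-Cas9 editing of Atrx, and the WT line went through the same procedure with an empty vector that carried Cas9 and no guide, so Cas9 exposure was common to both. The series holds 9 libraries, and the 6 used here are the 3 of B10 and the 3 of WT, on chromosomes 1 to 19. Overlapping or touching peaks of these 6 libraries were merged into 125190 regions, and the 91061 regions with a peak in at least 2 of the 3 libraries of either line were kept. Of these, 49857 held a peak in all 6 libraries and are called shared. Because 1 clone stands for the knockout, effects of ATRX loss and other differences of that clone cannot be told apart. The labels do not say that the replicates were separate cultures, so p-values measure only the spread between these libraries. In bulk samples, fewer open cells and a weaker opening in every cell cannot be told apart either.

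ATRX is a chromatin remodeller that works with the histone chaperone DAXX to place the histone variant H3.3 into heterochromatin, and it is known for keeping repeats, telomeres and some imprinted genes silent. In mesenchymal progenitors, open chromatin away from promoters marks enhancers, and the factors bound there help to set whether a cell stays a progenitor or becomes fat, bone, cartilage or muscle. AP-1 factors, dimers of FOS and JUN proteins, bind many enhancers of fibroblast-like cells, and SOX factors include SOX9, SOX5 and SOX6, the regulators of cartilage. TEAD factors carry the output of the Hippo pathway, and RUNX factors include the bone regulator RUNX2.

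The regions that differed carried these motifs unequally, so the bases around some peak summits are shown first. Each sequence is 201 bases of mm10 centred on the summit of the strongest peak, outside annotated exons, in lower case with capitals marking exact matches, on either strand, to the AP-1 letters TGAGTCA or the SOX letters CCTTTGT. They were chosen by hand after the values were seen, from regions named by the rule. The SOX pair lies near genes of cartilage and growth factor signalling and was more open in B10, the AP-1 trio was without a peak in B10, and the last pair goes the other way.
Region upstream of Sox9, peak in all 3 B10 and no WT library, chr11:112250889-112251089, plus strand: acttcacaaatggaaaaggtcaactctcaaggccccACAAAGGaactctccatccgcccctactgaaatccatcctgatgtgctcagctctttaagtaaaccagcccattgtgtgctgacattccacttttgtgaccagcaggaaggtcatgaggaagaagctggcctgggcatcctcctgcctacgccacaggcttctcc
Intron of Tgfb2, ranked higher in B10, chr1:186641217-186641417, plus strand: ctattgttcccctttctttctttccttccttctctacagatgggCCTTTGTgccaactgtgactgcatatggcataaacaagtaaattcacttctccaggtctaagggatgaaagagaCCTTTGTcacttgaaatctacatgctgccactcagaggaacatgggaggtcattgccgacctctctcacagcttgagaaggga
Intron of Zfp423, peak in all 3 WT and no B10 library, chr8:87702046-87702246, plus strand: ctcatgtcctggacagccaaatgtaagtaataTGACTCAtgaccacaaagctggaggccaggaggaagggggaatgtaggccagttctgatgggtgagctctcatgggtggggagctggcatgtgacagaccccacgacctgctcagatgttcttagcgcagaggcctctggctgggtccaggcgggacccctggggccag
Region upstream of Snap25, peak in all 3 WT and no B10 library, chr2:136678594-136678794, plus strand: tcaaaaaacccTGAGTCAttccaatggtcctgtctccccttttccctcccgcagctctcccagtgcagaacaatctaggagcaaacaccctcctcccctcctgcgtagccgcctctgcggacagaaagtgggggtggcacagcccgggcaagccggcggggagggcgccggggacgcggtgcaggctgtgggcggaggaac
Intergenic region nearest to Tgfb2, peak in all 3 WT and no B10 library, chr1:186460892-186461092, plus strand: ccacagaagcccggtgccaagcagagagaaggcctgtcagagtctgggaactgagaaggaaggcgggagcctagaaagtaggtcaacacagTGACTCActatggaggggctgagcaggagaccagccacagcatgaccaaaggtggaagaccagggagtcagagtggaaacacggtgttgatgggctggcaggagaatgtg
Intron of Sorcs3, peak in all 3 B10 and no WT library, chr19:48585098-48585298, plus strand: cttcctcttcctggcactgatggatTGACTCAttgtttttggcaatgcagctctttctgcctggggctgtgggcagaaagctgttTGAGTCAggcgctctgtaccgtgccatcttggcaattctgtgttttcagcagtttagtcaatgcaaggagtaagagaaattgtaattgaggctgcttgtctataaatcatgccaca
Region near Wnt7b, ranked lower in B10, chr15:85603479-85603679, plus strand: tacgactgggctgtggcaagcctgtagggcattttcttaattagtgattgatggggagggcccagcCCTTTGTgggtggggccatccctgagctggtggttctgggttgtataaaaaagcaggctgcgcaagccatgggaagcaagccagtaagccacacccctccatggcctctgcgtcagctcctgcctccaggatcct

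The lists hold no read counts, so sequencing depth is unknown, and the number of peaks is the closest measure of it. B10 replicates 1, 2 and 3 held 86650, 85612 and 79489 peaks, and the WT replicates 79534, 78215 and 76479, so the lines overlapped (exact two-sided permutation p = 0.2, n = 3 each). The strength of a peak is given as its rank, the percentile of its −log10 q-value within its own library, with 100 the strongest. Replicate 1 stood apart in both lines. Across shared regions the ranks of replicates 2 and 3 correlated at 0.953 in B10 and 0.958 in WT, while replicate 1 correlated with them at 0.894 to 0.896 in B10 and 0.849 to 0.850 in WT. These are descriptions across regions, which are not independent replicates. Start sites of 7 of 8 mesenchymal markers, Pdgfra, Pdgfrb, Prrx1, Twist1, Twist2, Snai2 and Vim, held a peak in all 6 libraries, and Thy1 in none. In the longer list of 18 mesenchymal progenitor genes used below, the start sites of Cd34, Nt5e and Tcf21 also held a peak in no library. The start site of Atrx, on chromosome X, was open in every library, ranking 80.8 to 86.0 in B10 and 81.5 to 82.5 in WT, which says nothing about the protein.

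A region was called gained with a peak in 2 or 3 B10 and 0 WT libraries, lost in the reverse case, and switched on or off where it was 3 against 0. There were 9946 gained regions (10.9% of the 91061 kept) and 7261 lost regions (7.97%). Of these, 4721 were switched on (5.18%) and 2930 were switched off (3.22%). Gains outnumbered losses with all peaks, but with the same number of top peaks taken from each library 7756 regions were gained and 8436 lost, so the more common direction cannot be separated from the number of peaks per library. Leaving out 1 library changes the rule as well as the data. A line left with 2 libraries needs a peak in both to be called, switched or not, and its absence is judged on 2. How far a given replicate matters therefore cannot be read from the counts that follow. The gained count was 6346 without B10 replicate 1 and 5838 without B10 replicate 2, and the lost count was 3713 without WT replicate 2 and 3867 without WT replicate 3. The count switched on was 7264 without B10 replicate 3 and 7816 without WT replicate 1, and the count switched off was 5588 without WT replicate 1. Without replicate 1 of both lines, 9653 regions were gained and 6394 lost.

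Gains in B10 were most frequent far from protein-coding start sites. The share of gained regions went from 2.77% of the 13281 regions within 1 kb of a protein-coding start site to 25.1% of the 7479 regions beyond 200 kb, while the share of lost regions was 3.86% and 7.93% in these bins. Beyond 200 kb, 1880 regions were gained and 593 lost, a ratio of 3.17, and with equal numbers of peaks 1542 were gained and 682 lost. The same held for whole libraries, of whose peaks 8.59%, 8.32% and 8.16% lay beyond 200 kb in B10 and 6.70%, 6.51% and 6.63% in WT. The B10 libraries all lay above the WT libraries, by 1.74 percentage points at the mean (exact two-sided permutation p = 0.1, the smallest that 3 against 3 libraries allow). Correspondingly, 19.3%, 19.9% and 20.8% of B10 peaks and 21.0%, 21.7% and 21.9% of WT peaks lay within 3 kb of a start site, a difference of -1.53 points without overlap (exact permutation p = 0.1, adjusted p = 0.28 over 14 library measures). Within 1 kb of a start site the order was the reverse, with 368 gained and 512 lost regions. Of the regions within 1 kb of a start site 11375 were shared, and beyond 200 kb 2753.

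**Figure D1:**
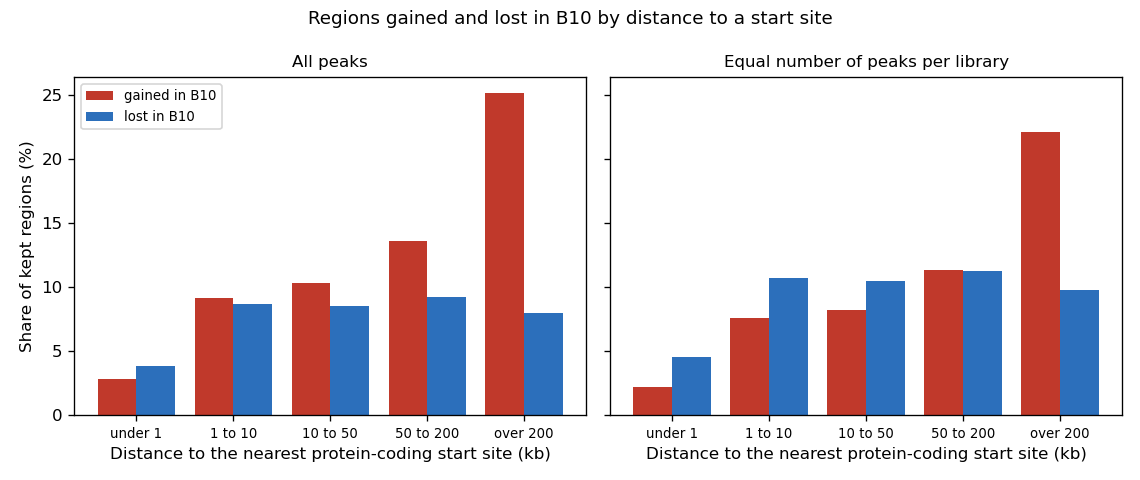
Share of kept regions (%, y axis) gained (red) or lost (blue) in B10, by distance in kb from the region to the nearest protein-coding start site (x axis), with all peaks on the left and an equal number of peaks per library on the right. Beyond 200 kb, 25.1% of regions were gained and 7.93% lost with all peaks, and 22.1% and 9.79% with equal numbers.

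Regions of the same call lay beside each other. The next region along the chromosome was also gained for 26.7% of gained regions, against 10.9% of all regions, and also lost for 21.0% of lost regions, against 7.97%. With equal numbers of peaks these shares were 26.0% against 8.95% and 22.4% against 9.74%. A gained region was followed by a lost one in 4.19% of cases.

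Among the genes with the most gained regions, Cdh10, a cadherin on chromosome 15, had 36 of its 43 regions gained, and Slc16a7, a transporter of lactate and pyruvate on chromosome 10, had 32 of 34. Grm7, a glutamate receptor on chromosome 6, had 31 of 50 gained and 1 lost, and Csmd3, a large membrane protein on chromosome 15, had 27 of 56 gained and 2 lost. With equal numbers of peaks these 4 genes had 31, 31, 24 and 23 gained regions. Their start sites did not all follow. That of Grm7 ranked 16.5 and 11.8 in B10 replicates 1 and 2, with no peak in replicate 3. In WT it ranked 31.9, 48.2 and 36.8, and it was not called. The strongest start-site regions of Cdh10 and Csmd3 were shared and not called, while that of Slc16a7 was switched on. Shared regions of chromosome 6 as a whole ranked 5.57 points higher in B10 at the median and those of chromosomes 10 and 15 0.479 and 0.432 points, and the part of the shift of chromosome 6 in the calls of Grm7 was not tested.

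Among the genes with the most lost regions, Tnr, which encodes tenascin-R, a matrix protein of the nervous system, had 21 of its 27 regions lost, 0 gained, and its 3 shared regions all ranked lower. Kirrel3, an adhesion molecule of the immunoglobulin family, had 17 of 52 lost and 1 gained, and Prex1, an activator of the GTPase RAC, had 17 of 30 lost and 0 gained. Flrt2, an adhesion and guidance receptor, had 10 of 50 lost and 2 gained, and without replicate 1 of both lines 9 lost and 8 gained. Zfp423, a zinc-finger factor that commits progenitors to the fat lineage, had 11 of 22 lost, 0 gained and 2 lower, on chromosome 8, whose shared regions ranked 3.80 points higher in B10 at the median.

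The 22 regions of Zfp423 did not move together. The main start site (chr8:87958131-87959626) held a peak in all 6 libraries, where the ranks were 86.7, 85.0 and 86.1 in B10 and 84.4, 81.2 and 82.6 in WT, and was not called. A second annotated start site (chr8:87803474-87805113) held no peak in B10 and ranked 70.8, 73.6 and 70.0 in WT. The intronic region with the AP-1 match printed above (chr8:87701654-87703206) held no peak in B10 and ranked 81.4, 78.3 and 80.3 in WT. Another intronic region (chr8:87938186-87939595) was open in all libraries at ranks of 25.1, 20.0 and 37.4 in B10 and 87.6, 88.5 and 88.9 in WT (limma adjusted p = 0.000857).

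Start sites were switched in both directions. Of the 4721 regions switched on, 220 (4.66%) lay within 1 kb of a protein-coding start site, at 218 genes, and of the 2930 switched off 319 (10.9%) did, at 310 genes. Many of these genes had another start site: 29.8% of the former and 25.2% of the latter had one with a peak in all 6 libraries.

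The strongest start site switched on belonged to Ptchd4, a membrane protein of the patched family (chr17:42315663-42316510). It ranked 91.5, 92.2 and 92.4 in the B10 replicates, with fold enrichments of 17.5, 17.1 and 16.5, and held no peak in any WT library. All 17 regions nearest to Ptchd4 were gained, as were 16 of 16 with equal numbers of peaks, and a region in its intron that is nearest to the start site of Opn5, an opsin, ranked 93.9, 91.0 and 89.7 in B10 only. Hey2, a repressor downstream of Notch, ranked 86.2, 86.1 and 84.3 in B10 (chr10:30842365-30843384), and Cnr1, a cannabinoid receptor, 82.2, 81.9 and 79.3 (chr4:33924155-33925222). Slc24a3, an exchanger of sodium, potassium and calcium, ranked 89.8, 90.5 and 86.1, and Slc35g1 82.4, 83.4 and 82.7. For none of these did a WT library hold a peak. The other start sites named by the rule, of Gm3468, Gm2237 and Gm5152, ranked 78.0 to 87.5 in B10 and belong to gene families with near-identical copies, so their place is uncertain. Away from start sites, regions nearest to Gm10801, Sorcs3 and 1700008P02Rik ranked 84.3 to 92.9 in B10.

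Of the start sites switched off, that of Agrn ranked highest. Agrn encodes agrin, which organises the nerve-muscle synapse, and its region (chr4:156197082-156198224) ranked 96.7, 91.6 and 95.3 in WT with no peak in B10. Fsip1 ranked 93.2, 90.9 and 93.1 in WT, Onecut2, a homeobox factor, 93.1, 89.2 and 88.8, and Oxr1, which protects against oxidative damage, 89.5, 91.2 and 91.6. Gm11992, Rnls, which encodes renalase, and Fam19a5, a secreted protein, ranked 83.2 to 93.0 in WT. Gm14406, of a multicopy zinc-finger family and therefore uncertain, ranked 88.1, 83.1 and 84.3. Of the regions switched off away from start sites, those nearest to Myt1l, a neuronal zinc-finger factor, and Kcnj6, a potassium channel, ranked 89.3 to 95.9 in WT. No B10 library held a peak in any of these regions, though Oxr1 had another start site with a peak in all 6 libraries.

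Ranks were then compared in the 49857 shared regions with limma, without pairing the libraries. There were 4435 regions that ranked higher in B10 (8.90% of those tested) and 2357 that ranked lower (4.73%) at an adjusted p under 0.05. With replicate number as a block, 10216 were higher and 6321 lower. Libraries of the same number deviated together, but so, by less, did replicate 2 of each line with replicate 3 of the other. All 3 B10 ranks lay above all 3 WT ranks in 10165 regions (20.4%) and below them in 6757 (13.6%). Higher regions outnumbered lower ones with all peaks and, by less, with equal numbers of peaks, 3322 against 3009, but fewer were higher than lower on quantile-normalised fold enrichment, 1108 against 1317. Leaving out each library in turn gave 1671 to 7860 higher and 774 to 3879 lower regions, where the fewest higher regions came without B10 replicate 2, the fewest lower regions without WT replicate 3 and the most of either without WT replicate 1.

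The largest difference upward lay in an intron of Etv6, an ETS-family repressor (chr6:134091096-134092028). It ranked 87.4, 90.3 and 88.0 in B10 and 15.1, 15.6 and 7.46 in WT (difference in normal score 2.37 ± 0.15 SE, limma adjusted p = 0.000507). A promoter region of Mtss1, which couples the membrane to actin, held a SOX match and ranked 81.6, 80.1 and 77.7 in B10 and 22.9, 1.76 and 6.97 in WT (adjusted p = 0.00378). Cdyl, a chromodomain corepressor, ranked 89.9, 88.8 and 85.4 at a start site in B10 and 9.90, 30.3 and 22.7 in WT (adjusted p = 0.00133). In these regions the weakest B10 library lay well above the strongest WT library, which choosing them by the largest difference favours. An intergenic region 430 kb from Trps1, a GATA-type repressor active in cartilage, ranked 92.6, 93.1 and 89.9 in B10 and 41.5, 25.5 and 9.14 in WT (adjusted p = 0.00225). An intron of Lrp5, a Wnt coreceptor, ranked 88.1, 84.4 and 82.3 against 44.5, 8.72 and 6.47 (adjusted p = 0.00665). Regions of Akap2, a kinase anchor, Chrna9, a nicotinic receptor subunit, and Stpg2 differed by 65.0 to 68.1 points in mean rank. Etv6 and Cdyl lie on chromosomes 6 and 13, which ranked 5.57 and 4.96 points higher in B10 as a whole.

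Downward, the promoter of Sp140, a nuclear body protein of immune cells in a cluster of related genes, ranked 17.5, 3.42 and 6.21 in B10 and 84.5, 81.9 and 80.5 in WT (difference in normal score -2.36 ± 0.23 SE, limma adjusted p = 0.00138). Gm2a, the activator of GM2 ganglioside breakdown, ranked 12.1, 6.07 and 26.1 at its promoter in B10 and 86.2, 82.8 and 82.0 in WT (adjusted p = 0.00176). The promoter of A4galt, a glycolipid enzyme, held an AP-1 match and ranked 25.1, 15.5 and 33.1 against 89.2, 91.3 and 93.8 (adjusted p = 0.00079). For each of these genes every WT library lay far above every B10 library, which the same choice favours. Kif17, a kinesin, and Dusp18, a phosphatase, had B10 minus WT differences in mean rank of -67.7 and -66.0 at their promoters. Intergenic regions nearest to Erap1, a peptidase of antigen processing, and Ttc17 had differences of -69.1 and -66.5. The 8 higher and 7 lower regions of these genes kept their call under every alternative that gave a value, and limiting regions to a mean rank of 50 or more left out 7 of them.

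**Figure D2:**
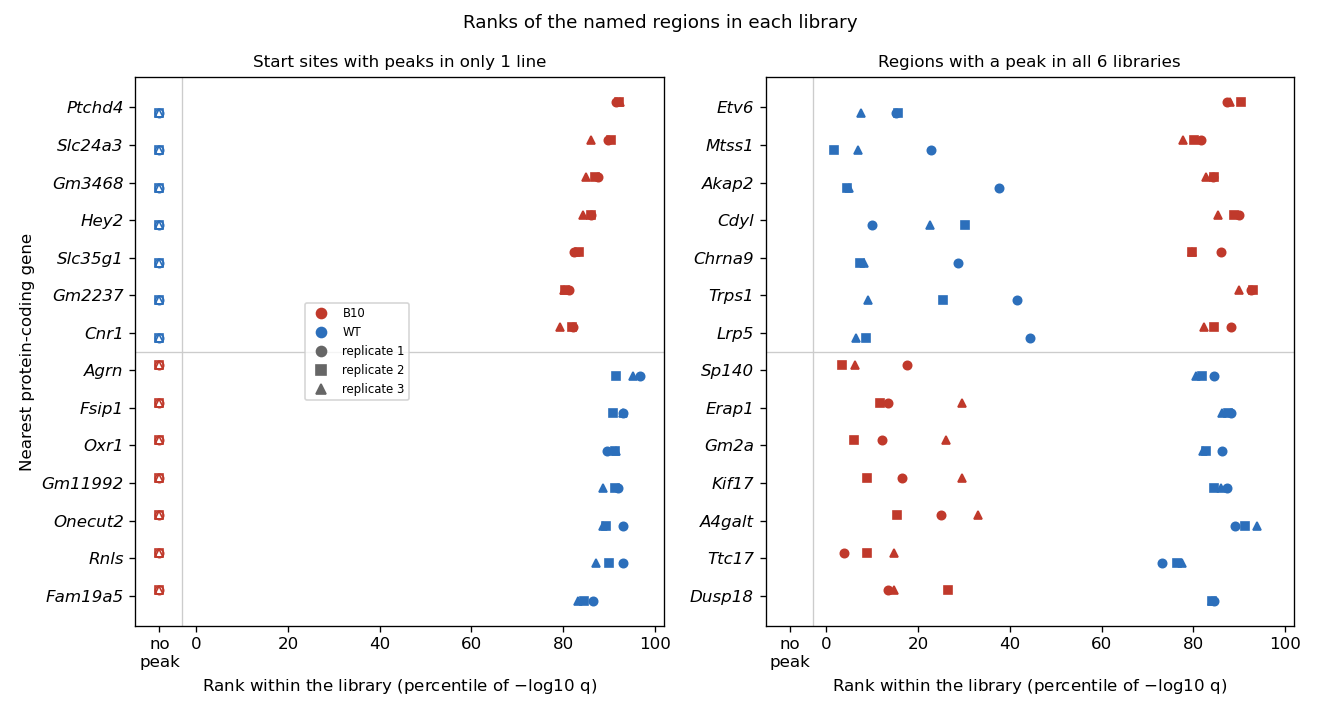
Within-library rank of −log10 q (x axis, percentile, 100 the highest) of regions named by the rule, 1 row a region and the first 7 in each direction, for start sites switched on or off (left) and regions with a peak in all 6 libraries (right). Each point is a library, red for B10 and blue for WT, with its shape giving the replicate and open points at the left edge standing for no peak. The rows were chosen for peaks in 1 line only or for the largest rank difference, so the lines are apart in every row.

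Ranks moved by whole chromosomes. The median B10 minus WT rank of shared regions was 0.648 over all chromosomes, 5.57 on chromosome 6, 4.96 on 13, 3.80 on 8, 2.72 on 18 and 2.06 on 17, and it was -2.41 on chromosome 5 and -1.88 on 14. In 9 of 19 chromosomes the medians of the B10 libraries did not overlap those of WT, with B10 above in 7. On chromosome 6 the median ranks were 71.2, 72.0 and 70.1 in B10 and 63.6, 64.2 and 62.9 in WT, and 26.1% of its shared regions were higher and 1.59% lower. On chromosome 5 they were 67.8, 68.8 and 66.6 in B10 and 71.2, 70.8 and 70.4 in WT, with 3.40% higher and 11.4% lower. Ranking within each chromosome, which takes these shifts out, left 3299 regions higher and 1907 lower. Gained regions outnumbered lost ones on 13 of 19 chromosomes with all peaks and on 7 with equal numbers of peaks, chromosomes 3, 6, 8, 10, 13, 17 and 18. Chromosome copy number was not measured here.

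**Figure D3:**
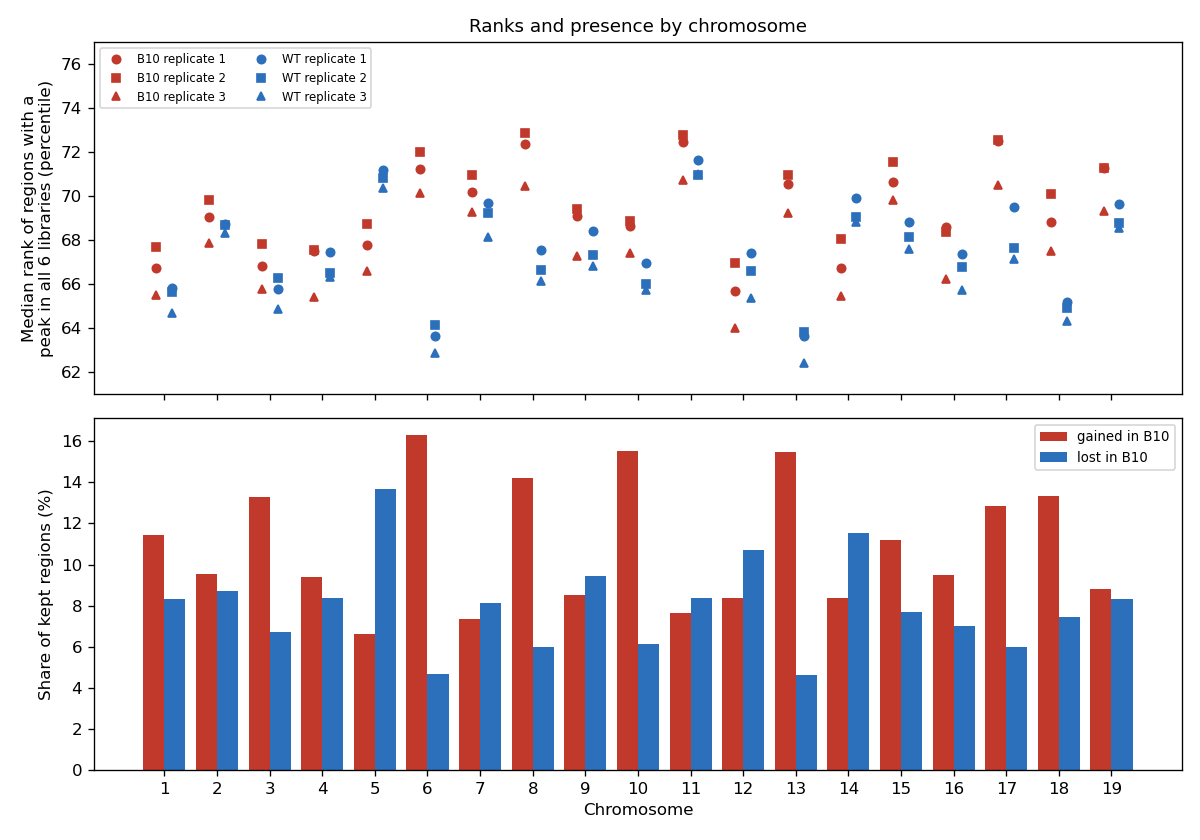
By chromosome (x axis), the median rank of shared regions in each of the 6 libraries (percentile, top) and the share of kept regions gained or lost (%, bottom). The B10 libraries lie above the WT libraries on chromosomes 6, 8 and 13 and below them on chromosomes 5 and 14.

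Letters around the summits differed by direction of change. The AP-1 letters TGAGTCA lay within 100 bp of the summit of 18.7% of all kept regions, of 11.4% of gained, 27.4% of lost, 10.6% of higher and 30.2% of lower regions. The SOX letters CCTTTGT lay in 5.42% of all regions, in 8.29% of gained, 4.05% of lost, 9.13% of higher and 2.80% of lower regions. RUNX letters, TGTGGTT, lay in 10.3% of gained and 6.93% of lost regions, and TEAD letters, GGAATG, in 18.9% and 14.0%, with 8.72% and 16.0% over all regions. The order was the same with equal numbers of peaks, at 11.9% of gained and 27.2% of lost regions for AP-1 and 8.73% and 4.13% for SOX. It was also the same without replicate 1 of both lines, at 10.4% and 29.7% for AP-1 and 8.44% and 3.89% for SOX. These shares are descriptions, since regions are not replicates, and a match is not a bound site. The classes differed in other ways too, as 7.93% of gained, 12.9% of lost and 19.5% of all regions were at promoters and the median GC content was 45.8%, 49.8% and 49.3%. The part of these differences in the motif shares was not tested.

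Read the other way, of shared regions with an AP-1 match 5.04% were higher and 7.60% lower, against 8.90% and 4.73% of all shared regions. Of those with a SOX match 16.2% were higher and 2.64% lower. Over whole libraries, SOX letters lay in 5.65%, 5.60% and 5.59% of B10 peaks and in 4.73%, 4.72% and 4.87% of WT peaks. Every B10 library lay above every WT library, by 0.840 points at the mean (exact two-sided permutation p = 0.1, adjusted p = 0.28). AP-1 letters lay in 14.1%, 17.7% and 17.4% of B10 peaks and 16.3%, 21.7% and 21.3% of WT peaks, a mean difference of -3.40 points with overlap (exact permutation p = 0.3), replicate 1 being low in both lines. Within replicate numbers the B10 minus WT difference was -2.20, -4.06 and -3.92 points (exact paired permutation p = 0.25, the smallest that 3 pairs allow). TEAD letters differed by 0.822 points without overlap (exact permutation p = 0.1) and RUNX letters by 0.501 points with overlap (exact permutation p = 0.2).

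**Figure D4:**
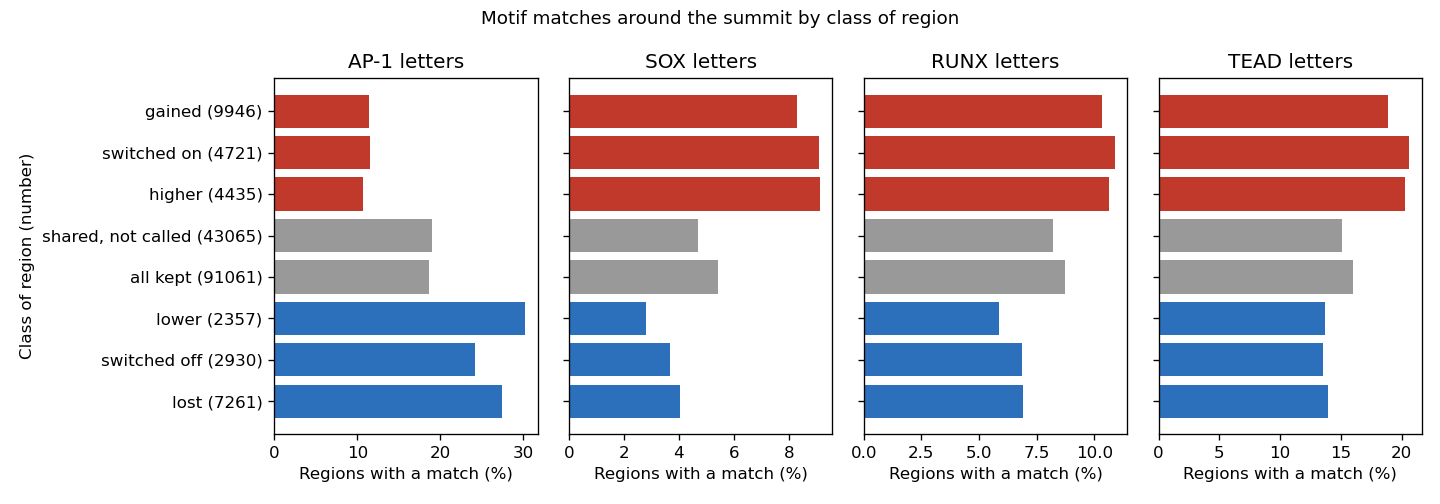
Share of regions (%, x axis) with an exact match to the AP-1, SOX, RUNX or TEAD letters within 100 bp of the summit, by class of region (y axis, number of regions in brackets), red for more open in B10 and blue for less open. AP-1 letters were at 27.4% of lost and 11.4% of gained regions, and SOX letters at 4.05% and 8.29%.

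Regions were next counted by the protein-coding gene whose start site was closest, for lists of genes of known role, beside 10.9% gained and 7.97% lost over all regions. Sox factor genes had 310 regions, of which 56 were gained and 6 lost (45 and 11 with equal numbers of peaks), and cartilage genes 409, of which 76 were gained and 16 lost (54 and 22). The lists share Sox5, Sox6 and Sox9. Of their shared regions 25 of 156 and 43 of 210 were higher, and 5 and 4 were lower, beside 8.90% higher and 4.73% lower over all shared regions. The median rank difference of shared regions was 4.94 points for the Sox list and 3.77 for the cartilage list, against 0.648 over all shared regions. Without chromosomes 5, 6, 8, 13, 17 and 18, whose median moved by over 2 points, the Sox list had 43 gained and 3 lost of 230 and the cartilage list 59 and 13 of 335. Sox9, the master regulator of cartilage, had 20 of 109 regions gained, Sox6 15 of 75 and Sox5 8 of 40. Most gains of both lists therefore came from these shared genes, and the lists are not separate observations. The counts were not matched for distance, and of all regions beyond 200 kb from a start site 25.1% were gained. The Sox9 region printed above, 531 kb from the start site (chr11:112250766-112251396), ranked 64.8, 58.2 and 54.5 in B10, and an intron of Sox5 (chr6:144042858-144043532) 74.9, 53.8 and 61.6, with no peak in WT. The start site of Sox12, a factor of the same family, ranked 69.2, 72.1 and 64.3 in B10 only. A region nearest to Acan, the main proteoglycan of cartilage, went the other way, with no peak in B10 and ranks of 75.2, 70.2 and 65.0 in WT.

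Wnt genes had 84 of 499 regions gained and 28 lost (66 and 39 with equal numbers of peaks). Their shared regions had a median rank difference of 2.89 points, against 0.648 over all shared regions. Without the moved chromosomes this median was 0.452, against 0.0943 over all shared regions there. Rspo3, a secreted enhancer of Wnt signalling, had 12 of 13 gained and Ror1, a receptor for Wnt5a, 10 of 19. An intron of Tcf7l2, a nuclear effector of the pathway, ranked 80.1, 69.8 and 62.3 in B10 only. The start site of Axin2, a feedback inhibitor of the same pathway, held no peak in B10 and ranked 66.2, 62.5 and 68.9 in WT. The region near Wnt7b printed above ranked 31.4, 28.8 and 19.4 in B10 and 81.2, 80.3 and 82.1 in WT (limma adjusted p = 0.00119). Members of the list therefore lay on both sides.

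Hippo pathway genes had 20 of 237 regions gained, under the share over all regions, and 6 lost, and 28 of 148 shared regions higher against 1 lower (15 and 1 of 109 without the moved chromosomes, where 2305 of all 35772 shared regions were higher and 1772 lower). Vgll4, a TEAD cofactor on chromosome 6, ranked 77.2, 75.2 and 76.5 in an intron and 67.9, 58.2 and 70.4 at a start site in B10, with no peak in WT. The lower region lay near Ankrd1, a target gene of the pathway, with ranks of 64.3, 63.0 and 59.0 in B10 and 83.8, 85.6 and 84.8 in WT (limma adjusted p = 0.00236). Bone genes had 23 of 144 gained and 10 lost (15 and 13 with equal numbers), and 3 and 1 of 41 without the moved chromosomes. Mef2c, a factor of muscle and bone on chromosome 13, had 10 of 37 regions gained and also the most highly ranked lost region of the list, at 84.1, 82.3 and 81.3 in WT.

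In several lists losses equalled or outnumbered gains. Adipocyte genes had 21 of 233 regions gained and 28 lost (16 and 32 with equal numbers, 13 and 14 without the moved chromosomes), of which 11 of the lost belonged to Zfp423. Of the 117 shared regions of the adipocyte list 13 (11.1%) were higher and 9 (7.69%) lower, against 8.90% and 4.73% of all shared regions. Their median rank difference was 0.375 points, against 0.648 over all shared regions. Without the moved chromosomes 6 were higher and 6 lower of 81, with a median of -0.196. The start site of Cd36, a fatty acid transporter, was switched on, at 70.2, 61.7 and 65.3 in B10, on chromosome 5, which ranked lower in B10 as a whole. Mesenchymal progenitor genes had 10 of 215 gained and 18 lost. Their lost share, 8.37%, was near the 7.97% over all regions, and their gained share was 4.65%. The start site of Meox1, a homeobox factor, ranked 9.28, 3.42 and 10.9 in B10 and 45.8, 60.0 and 57.0 in WT (limma adjusted p = 0.00585). Hox genes had 4 of 71 gained and 12 lost, while of their 37 shared regions 7 were higher and 3 lower, with a median rank difference of 5.78 points. Without the moved chromosomes 2 were higher and 3 lower of 22, with a median of -2.16, against 0.0943 over all shared regions there. The direction in shared regions of the Hox list therefore turned. Genes of AP-1 factors had 3 of 115 gained (2.61%) and 8 lost (6.96%), both under the 10.9% and 7.97% over all regions. Of their 72 shared regions 4 (5.56%) were higher and 0 lower, against 8.90% and 4.73% of all shared regions. The start site of Atf3, a stress-induced partner of JUN, ranked 83.7, 87.4 and 83.6 in B10 and 54.8, 47.1 and 42.8 in WT (limma adjusted p = 0.00161), a call not made on fold enrichments. Muscle genes had 11 of 113 gained and 11 lost. For TGF-beta and BMP genes, 50 of 486 were gained and 33 lost, but 40 and 41 with equal numbers, and for collagen and matrix genes 44 of 520 and 33, but 28 and 40. Cell cycle inhibitor and p53 genes turned over in the same way, from 12 gained and 9 lost of 148 to 7 and 11. The counts over all regions turned likewise, from 9946 gained and 7261 lost to 7756 and 8436, so this was not particular to these lists.

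Tgfb2, a TGF-beta ligand, had a region of each kind among the sequences above. Its intronic region with a pair of SOX matches (chr1:186641169-186641617) ranked 78.6, 73.2 and 68.3 in B10 and 38.3, 3.14 and 20.5 in WT (limma adjusted p = 0.019), a call that was lost without any of the B10 replicates or without WT replicate 3. The region with an AP-1 match (chr1:186460824-186461207) held no peak in B10 and ranked 33.6, 41.5 and 46.2 in WT. Near Nog, an inhibitor of BMP signalling, a region ranked 2.19, 24.0 and 12.7 in B10 and 63.0, 73.7 and 70.0 in WT (limma adjusted p = 0.0096).

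Imprinted genes, expressed from 1 parental copy, had 35 of 141 regions gained and 16 lost (25 and 14 with equal numbers), and 17 of the 30 regions nearest to Ndn were gained. A start site of Grb10, an adaptor that restrains growth, ranked 71.1, 63.8 and 59.4 in B10 only (chr11:12036574-12037994), and a start site of Sgce was also switched on. That of Plagl1, a zinc-finger factor, held no peak in B10 and ranked 79.5, 74.3 and 75.7 in WT (chr10:13090455-13091437). Genes of ATRX partners and heterochromatin, which include the H3.3 and HP1 machinery, had 5 of 70 regions gained and 1 lost. Interferon-response genes had 2 of 55 gained and 6 lost.

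**Figure D5:**
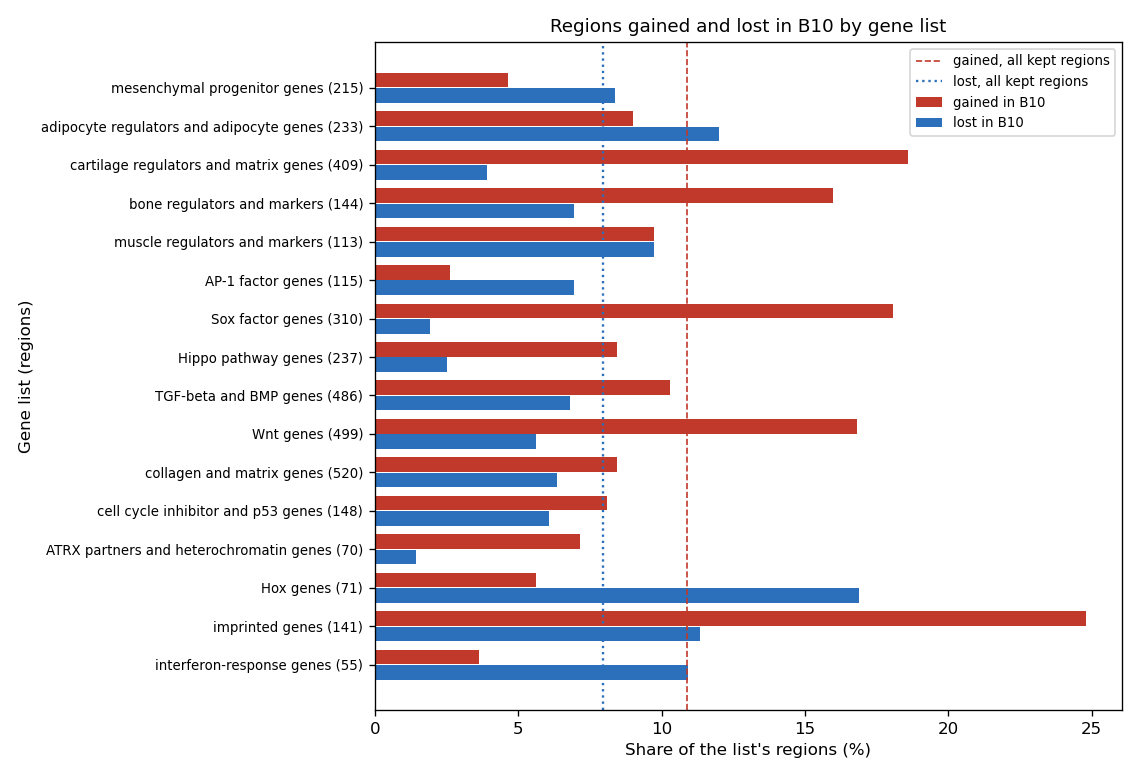
Share of each list's regions (%, x axis) gained (red) or lost (blue) in B10, by gene list (y axis, number of regions in brackets), with lines at the shares over all regions, 10.9% gained and 7.97% lost. The Sox factor, cartilage, imprinted and Wnt lists had more gained than lost regions, and the adipocyte, mesenchymal progenitor and Hox lists more lost than gained. The lost share of the mesenchymal progenitor list, 8.37%, was near that over all regions, and its gained share, 4.65%, was lower.

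The genes that the study followed in fat differentiation and stemness were read last. Pparg, the master regulator of fat cells, had 3 regions at annotated start sites. At the most divergent of them (chr6:115360782-115361761) the ranks were 87.1, 85.2 and 82.4 in B10, and in WT 9.90 and 20.8 in replicates 1 and 2 with no peak in replicate 3. The lines did not overlap, but the region was called by neither rule, since WT held peaks in 2 libraries. The other two (chr6:115420889-115421271 and chr6:115421738-115422155) held peaks in all 6 libraries, at ranks of 46.8 to 70.7 and 48.1 to 67.8 in B10 and 18.7 to 50.4 and 30.3 to 49.5 in WT, so the lines overlapped and neither was called (limma adjusted p = 0.111 and 0.166). A region 20.2 kb away ranked 84.5, 76.5 and 73.4 in B10 and 58.6, 30.3 and 33.6 in WT (limma adjusted p = 0.0143), on chromosome 6, which ranked higher as a whole. Its call was lost without WT replicate 2 or 3, and it was chosen after its values were seen. Cebpa, a partner of Pparg, ranked 81.5, 81.1 and 78.7 at its start site in B10 and 85.7, 88.0 and 84.0 in WT and was not called (limma adjusted p = 0.0984). Etv1, an ETS factor, had its start site open in all 6 libraries without a call, with a region 182 kb away at 76.1, 81.6 and 78.2 in B10 and 6.89, 24.9 and 28.8 in WT (limma adjusted p = 0.00418). That region lies in an intron of Dgkb. A region within Etv1 (chr12:38843601-38844391) ranked 80.7, 82.6 and 83.3 in B10 and 87.7, 88.0 and 90.0 in WT (limma adjusted p = 0.0362). Its call was lost when any library but WT replicate 1 was left out, on fold enrichments and with ranks within each chromosome. Of the 13 regions of Etv1, 4 were gained, 2 lost, 1 higher and 1 lower. Lpl, which releases fatty acids, had 2 gained regions and 1 higher. The higher call was lost with equal numbers of peaks and when any library but WT replicate 1 was left out. It was also lost on fold enrichments and with ranks within each chromosome. Of the gained calls of Lpl 1 was lost when a −log10 q of 5 was required on the side with the peak. Fabp4, a fatty acid carrier, had no called region. Cd34, a surface marker of progenitors, had 1 region higher, a call lost without B10 replicate 1 or 2 or WT replicate 3, and 1 lost. That lost region, and 1 gained and 1 lost region of Etv1, were not called when a −log10 q of 5 was required.

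Markers of other cell types were mostly without a peak over the start site. Such a peak was in no library for 5 of 8 epithelial, 3 of 6 endothelial, 5 of 6 blood, 3 of 5 neural and 4 of 5 pluripotent markers, and in all 6 for Grhl2, Pecam1, Tek and Rbfox3. Krt14, a keratin, ranked 52.3, 81.6 and 74.9 at its start site in WT with no peak in B10, and Snap25, a synaptic protein, 75.9, 72.3 and 70.3. By nearest region, neural markers had 0 of 38 gained and 19 lost, blood markers 0 of 21 and 6, endothelial markers 10 of 48 and 1, and epithelial markers 9 of 64 and 7. Of the endothelial gains 9 belonged to Cdh5, on chromosome 8, and of the epithelial gains 8 to Grhl2, and without the moved chromosomes endothelial markers had 1 of 21 gained and 0 lost. The part of these in the other counts was not tested.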

How the data were processed

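ATAC-seq peak lists of 3 B10 and 3 WT libraries, grouped by their labels, were used, and the third line was not. The authors filtered paired-end reads with Rfastp, aligned them to mm10 with Rsubread and called peaks per replicate with MACS2, whose version is not given in the sources used here. Whether an input control or a blacklist was applied is unclear. The deposited lists give each peak a fold enrichment, a ratio to background, with the −log10 p-value and −log10 q-value of MACS2, whose q-value threshold was 0.05. The authors' display score was not used. No read counts are held, so the DESeq2 test of the study could not be run.

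Regions were merged, kept with peaks in 2 or more libraries of a line, and ranked by their strongest peak. Ranks of shared regions were turned into normal scores and tested with limma 3.58.1 with trend and Benjamini-Hochberg adjustment, after the script was tested on simulated data. For library values, exact permutation tests (two-sided, scipy 1.17.1) were used, whose smallest p is 0.1. The main limma fit, which gave the p-values of named regions, and the main library tests did not pair the libraries. Pairing by replicate number was used only as an alternative, as a limma block and in the paired permutation test. It was considered since deviations from line means correlated at 0.571, 0.384 and 0.352 for the same number. Deviations of B10 replicate 2 and WT replicate 3 also correlated, at 0.198, and those of B10 replicate 3 and WT replicate 2 at 0.220. The part of replicate 1, which stood apart in both lines, in these values was not tested. Regions took the nearest GENCODE M21 protein-coding start site within 1 Mb, and promoters were 3 kb either side. Motifs were exact letters on both strands within 100 bp of the summit. Named regions were the 8 strongest switched each way, the same at start sites within 1 kb, the 8 shared regions with the largest called rank difference each way, the 5 genes with most gained and most lost regions, up to 3 regions of each gene list each way, and genes the study names. A region and a gene that the rule names are not reported here. Counts without chromosomes whose median rank moved, and counts by distance, motif, chromosome and gene with equal peak numbers or without replicate 1, were added after seeing the data. Members, lists and tests were chosen with earlier results of these data known. No 2 libraries shared over 0.382% of peaks with identical ends.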

Additional observations from a re-analysis of the deposited data

How the results depend on the processing

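The lists hold no read counts, so depth is unknown, a missing peak may lie just under the threshold, and ranks compare regions only within a library. Leaving out each library in turn gave 5838 to 14887 gained, 3713 to 9457 lost, 5312 to 7816 switched-on, 3530 to 5588 switched-off, 1671 to 7860 higher and 774 to 3879 lower regions. The presence counts move partly by rule, since a line left with 2 libraries needs a peak in both to be called. Without replicate 1 of both lines, 9653 regions were switched on and 6394 off (with 2 libraries a line these equal the gained and lost counts), and 9210 were higher and 5907 lower. Requiring a −log10 q of 5 on the side with the peak left 6542 gained regions. On quantile-normalised log2 fold enrichment 1108 regions were higher and 1317 lower. Pairing the libraries by replicate number as a block gave 10216 higher and 6321 lower regions, and it changed no other call among the named regions. The share of SOX letters stayed higher and those of AP-1 letters and promoters lower in B10 under every alternative run on them. Of 167 named regions, 136 kept their call under every alternative that gave a value, 107 of 1812 values lost it, and 0 reversed. The cause of these changes was not tested.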

Other observations

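Neighbouring regions with the same change formed runs. Counting at least 5 kept regions in a row that were all gained or higher, there were 212 runs, the longest of 27 regions, and of lost or lower regions there were 99, the longest of 13. The longest gained run spanned 1925 kb of chromosome 5 around Speer1 and Gm5152, which belong to multicopy families, so its mapping is uncertain. Runs of 26 gained regions covered 523 kb at Slc16a7 and 2143 kb at Sorcs1 and Ins1, and a run of 22 covered 2450 kb at Cdh7, a cadherin. Of lost or lower regions, runs of 13 covered 224 kb at Tnr and of 12 covered 212 kb at Pax2, a kidney and brain developmental factor. Runs were counted with all peaks and not under the alternatives.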
